A study of Mus musculus with 5 samples.

Results

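STAT3 binding in dendritic cells treated with SAHA was described by 8551 genomic regions that the authors listed against an IgG control, of 60036 regions in the 4 lists of the study. Every region of that list was used except 1 row that contradicts itself. The study profiled STAT3, H3K4me3 and IgG by chromatin immunoprecipitation and sequencing (ChIP-seq) in mouse dendritic cells. The series title names acetylated STAT3, and the samples' own labels name STAT3. Marrow came from female C57BL/6 mice aged 10 weeks, and all groups were grown for 7 days in GM-CSF (10 ng/mL) plus IL-4 (10 ng/mL), then selected for CD11c to a purity of 95%. The STAT3 group with SAHA and the H3K4me3 group with SAHA received it for 12 hours at a dose the labels write as 500 nm, given in serum-free medium after solution in DMSO. The STAT3 and IgG groups of diluent cells received the diluent alone. SAHA, also called vorinostat, inhibits histone deacetylases. No IgG library of SAHA cells was used here, so treatment and antibody both differ between the SAHA STAT3 library and its control and cannot be told apart. Each group was 1 library, so no difference below has a replicate check and no p-value is given.

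STAT3 is a transcription factor that sits in the cytoplasm until Janus kinases at a cytokine receptor phosphorylate it, after which it forms dimers, enters the nucleus and binds DNA at spaced TTC and GAA letters. IL-6, IL-10 and growth factors act through it, and Socs3, one of its targets, shuts the receptor down again. In dendritic cells STAT3 is known for restraining maturation and cytokine output. H3K4me3 is a histone mark of active or poised transcription starts.

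Sequences upstream of genes with a region show what the letters of the STAT3 motif look like there. The promoters below belong to Clcn7, which had the highest-scoring promoter region of the list, and to 4 classical STAT3 targets (Bcl6, Icam1, Sbno2 and Zfp36) whose upstream sequence holds TTCNNNGAA. Stat3 is shown as the classical target with the highest score, and its window does not hold those letters. The windows of Hspa1a, Il21 and Birc5, also classical targets with a region, do not hold them either and are not shown. Each is the 250 bases before a RefSeq start in assembly GRCm38.p6, 5′ to 3′ on the gene's strand, with TTCNNNGAA in capitals. Clcn7 lies at chr17:25133141-25133390 on the plus strand, and a second RefSeq start of Clcn7 has a window without the letters. Bcl6 has 2 starts on the minus strand, with windows at chr16:23988853-23989102 (a) and chr16:23981284-23981533 (b). Icam1 lies at chr9:21015690-21015939 (plus), Sbno2 at chr10:80101188-80101437 (minus), Zfp36 at chr7:28379229-28379478 (minus) and Stat3 at chr11:100939541-100939790 (minus). Of the 3 Sbno2 windows of the table, the one shown and another hold the letters. The third, at chr10:80075440-80075689, does not. The starts of Sbno2 and of Bcl6 lie kilobases apart, and windows were not matched to the STAT3 regions. A window shown may thus lie away from the region of its gene. These coordinates are not in mm9, the build of the regions.
Clcn7: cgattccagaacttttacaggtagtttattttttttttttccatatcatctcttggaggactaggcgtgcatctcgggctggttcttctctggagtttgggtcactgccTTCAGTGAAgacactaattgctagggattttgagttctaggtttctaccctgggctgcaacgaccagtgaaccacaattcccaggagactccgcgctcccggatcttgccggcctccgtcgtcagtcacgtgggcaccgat
Bcl6 a: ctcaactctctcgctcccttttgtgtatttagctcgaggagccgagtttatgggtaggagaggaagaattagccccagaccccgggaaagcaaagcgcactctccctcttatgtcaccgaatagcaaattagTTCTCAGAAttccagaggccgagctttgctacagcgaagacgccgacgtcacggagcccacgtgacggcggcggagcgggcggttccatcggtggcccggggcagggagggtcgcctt
Bcl6 b: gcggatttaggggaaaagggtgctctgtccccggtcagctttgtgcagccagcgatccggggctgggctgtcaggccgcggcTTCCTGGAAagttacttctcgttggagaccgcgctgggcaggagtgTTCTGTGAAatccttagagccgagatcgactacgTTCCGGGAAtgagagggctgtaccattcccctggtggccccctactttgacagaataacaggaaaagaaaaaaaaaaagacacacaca
Icam1: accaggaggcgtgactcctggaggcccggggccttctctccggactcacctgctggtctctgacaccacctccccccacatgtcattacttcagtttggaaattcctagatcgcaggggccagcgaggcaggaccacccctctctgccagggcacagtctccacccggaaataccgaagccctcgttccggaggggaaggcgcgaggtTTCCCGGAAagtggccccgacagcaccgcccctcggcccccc
Sbno2: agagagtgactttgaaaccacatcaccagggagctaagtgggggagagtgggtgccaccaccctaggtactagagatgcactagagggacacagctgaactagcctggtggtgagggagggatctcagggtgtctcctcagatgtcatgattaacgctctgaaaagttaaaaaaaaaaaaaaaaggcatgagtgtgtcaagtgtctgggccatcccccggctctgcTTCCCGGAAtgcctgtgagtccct
Zfp36: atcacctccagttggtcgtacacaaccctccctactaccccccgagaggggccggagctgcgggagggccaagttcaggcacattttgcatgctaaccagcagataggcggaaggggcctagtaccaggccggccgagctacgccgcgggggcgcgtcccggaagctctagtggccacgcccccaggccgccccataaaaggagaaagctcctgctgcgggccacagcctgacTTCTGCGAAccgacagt
Stat3: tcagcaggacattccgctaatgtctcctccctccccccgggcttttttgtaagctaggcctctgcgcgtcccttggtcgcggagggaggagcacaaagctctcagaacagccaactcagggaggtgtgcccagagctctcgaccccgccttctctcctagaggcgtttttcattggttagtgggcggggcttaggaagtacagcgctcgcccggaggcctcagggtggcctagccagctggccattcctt

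Promoters of genes with a STAT3 region did not hold the STAT3 letters more often than other promoters. TTCNNNGAA, which reads the same on both strands, was searched in windows of 300 bases, 250 before and 50 after each start. Coding genes whose start appears in any of the 4 lists were scored, and 1379 of these 14014 genes (9.84%) had a region within 1 kb of a start. RefSeq promoters were found for 1152 of the 1379. Every promoter of such a gene was counted, also one away from its region, so these shares describe genes and not single regions. The letters were present in 105 of 1534 promoters (6.84%, exact 95% interval 5.63 to 8.23%) of those genes. Promoters of scored genes with no region within 5 kb held it in 7.13% of cases, and all 32841 promoters of the table in 8.30%. Where the region scored 50 or more, 17 of 411 promoters (4.14%, 2.43 to 6.54%) held it. The stricter TTCCNGGAA was in 1.30% of promoters of genes with a region and 1.22% of those of genes without one. GC boxes differed more. GGGCGG, searched on both strands, was in 65.0% of promoters of genes with a region (62.5 to 67.4%). It was in 56.9% of those of genes without one (56.0 to 57.8%) and in 35.7% of all promoters. Mean GC content was 61.0% for genes with a region and 59.3% for genes without one. CCAAT, the NF-Y letters, was in 38.1 and 37.6%, the ETS letters GAGGAAGT in 3.52 and 3.15%, and the AP-1 letters TGANTCA in 4.82 and 6.01%. These windows cover the promoter, not the whole STAT3 region, and the sequence of the regions themselves was not used here.

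The STAT3 library of SAHA cells held 17810183 filtered tags, the IgG library 18925827 and the STAT3 library of diluent cells 25013431. Reads aligned in 98.5% of cases in the SAHA STAT3 library and 77.9% in the IgG library. Intervals in the text are exact Clopper-Pearson intervals and cover counting error only. The labelled cell type was checked at the H3K4me3 mark, which covered a listed start of 80.3% of all scored coding genes. It covered 12 of 12 scored dendritic cell markers (among them Itgax, Flt3 and Zbtb46) and 9 of 9 macrophage and monocyte markers, so it does not separate these cell types. It covered 3 of 7 T cell, 2 of 4 granulocyte and mast cell, 1 of 5 B cell, 0 of 3 erythroid, 1 of 4 non-haematopoietic and 0 of 2 NK cell markers. The 4 lists that give the scored starts include H3K4me3 lists, so coverage among scored markers is partly set by the lists. Scored were 12 of 13 dendritic, 9 of 9 macrophage and monocyte, 7 of 10 T cell and 5 of 7 B cell markers. So were 4 of 7 granulocyte and mast cell, 3 of 6 erythroid, 4 of 8 non-haematopoietic and 2 of 5 NK cell markers.

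Most STAT3 regions lay away from transcription starts, and the densest stretch of the list was still the start itself. The regions covered 5.84 Mb, with a median width of 612 bp. The midpoint lay within 1 kb of the start of the assigned gene for 1414 regions (16.5%, 15.8 to 17.3%), within 5 kb for 32.4% and within 50 kb for 78.3%. Beyond 1 kb, 3062 regions (35.8%) were upstream of the start, 2482 (29.0%) inside the assigned transcript and 1593 (18.6%) past its end. Inside the promoter window the 2 sides were nearly even, with 642 of 1414 midpoints (45.4%) upstream.

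**Figure D1:**
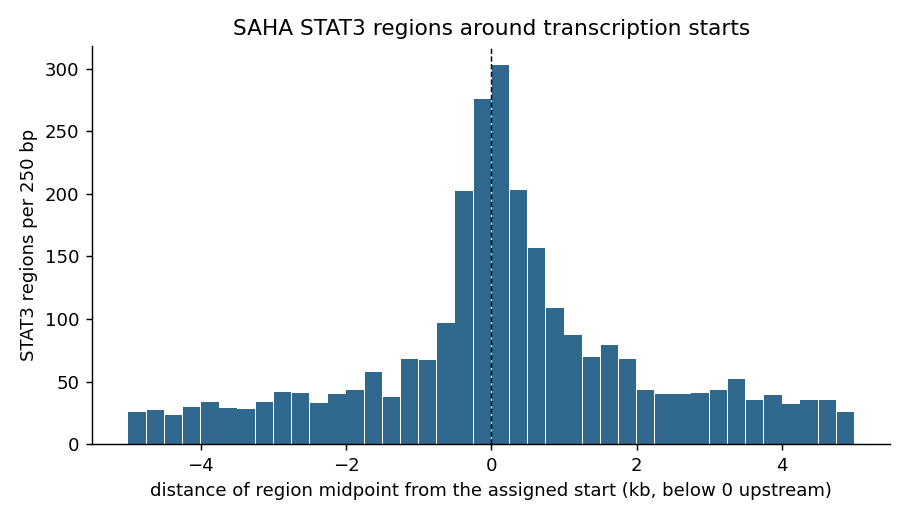
Bars count the SAHA STAT3 regions in 250 bp steps by the distance of their midpoint from the assigned start, in kb, with upstream below 0. The tallest bars stand on both sides of the start, and the counts fall away on both sides within 1 kb.

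Regions at starts scored higher and nearly always lay on the active mark. The score is the authors' value for each region against IgG, and it is used here only to rank and filter regions within this list. It ran from 30 to 241.53 with a median of 35.4, and 1022 regions (12.0%) reached 50. Median scores were 39.0 within 1 kb of a start, 35.4 from 1 to 5 kb, 35.1 from 5 to 50 kb and 34.6 beyond 50 kb. A SAHA H3K4me3 region was overlapped by 90.0% of regions within 1 kb (88.3 to 91.5%), by 35.1% from 1 to 5 kb, by 11.4% from 5 to 50 kb and by 7.12% beyond. In all, 2328 regions (27.2%) lay over H3K4me3, of which 1272 (54.6%) were within 1 kb of a start. Seen from the mark, 2260 of 25723 H3K4me3 regions (8.79%) held a STAT3 region.

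The make-up of the list changed with the score. Among the 2062 regions scoring below 32, 11.7% were within 1 kb of a start and 18.6% over H3K4me3. Among the 207 regions scoring 70 or more, 45.4% (38.5 to 52.5%) were within 1 kb and 73.4% over H3K4me3. The share also called without a control, from the same SAHA STAT3 reads, went from 0.339 to 36.2%, and median width from 584 to 1087 bp.

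**Figure D2:**
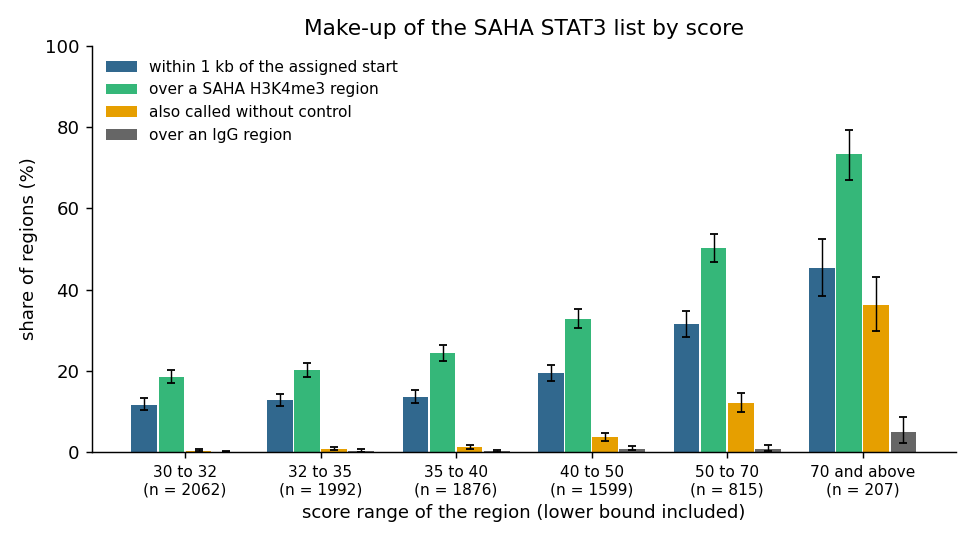
Bars give the share of regions in each score range that lay within 1 kb of the assigned start, over a SAHA H3K4me3 region, over a region called without control in the same library, or over an IgG region, in percent. Whiskers are exact 95% intervals. All 4 shares are highest at scores of 70 and above, where they stand at 45.4, 73.4, 36.2 and 4.83%.

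The SAHA list leaned more to starts than the list of diluent cells, which share the same IgG control. In the diluent list 418 of 3507 regions (11.9%, 10.9 to 13.0%) were within 1 kb of a start, against 16.5% in SAHA. Among the 3507 highest-scoring SAHA regions, those at 37.28 or more, the share was 22.4%. That cut drops the low scores of the SAHA list only, where the share is lowest, so 22.4% and 11.9% are not at like thresholds. The share over SAHA H3K4me3 was alike in both lists, 27.5% in diluent and 27.2% in SAHA. Of the SAHA regions, 236 (2.76%) overlapped a diluent STAT3 region. The libraries differ in depth and each stands alone, so the part of treatment in these shares was not tested.

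A small, high-scoring set was also called in the SAHA STAT3 library without a control. IgG overlap was rare, and its share was highest at the top scores. The list and the call without control use the same SAHA STAT3 reads, so neither is independent support for the other. Without control, that library gave 784 regions, and 403 of them (51.4%) lay over an IgG region. Outside IgG regions, 235 of 381 (61.7%, 56.6 to 66.6%) were in the list, with a median of 21 tags and a median fold of 6.19 over local background. Over IgG regions, 42 of 403 (10.4%) were in the list, with a median of 104.5 tags. The 235 regions had a median score of 57.8, and 68 (28.9%) lay within 1 kb of a start and 115 (48.9%) over H3K4me3. Of the 235, 12 (5.11%) overlapped a region of the diluent STAT3 library called the same way.

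IgG regions lay under 43 STAT3 regions (0.503%). These were 0 of 1414 within 1 kb of a start (an exact upper bound of 0.261%) and 19 of 1854 (1.02%) beyond 50 kb, the rest between. The list was made against this same IgG library, so low overlap is partly set by the listing. Of the 37 regions scoring 100 or more, 6 (16.2%) lay over an IgG region. They were those assigned to Axin2, Mir715, Chl1, Txndc11, mimp3 and Pxmp3. At 42 listed regions with a count in both libraries, the SAHA STAT3 library had 1.42 times the IgG tags, each scaled to its library's filtered tags (median, range 0.999 to 2.49) and was higher at 41. At the 361 unlisted regions called in both, the median was 1.01 (0.318 to 1.73), and SAHA STAT3 was higher at 190. Listing used both libraries, so this contrast is a description of the list. Regions were called separately in each library, so the counted stretches differ in width.

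**Figure D3:**
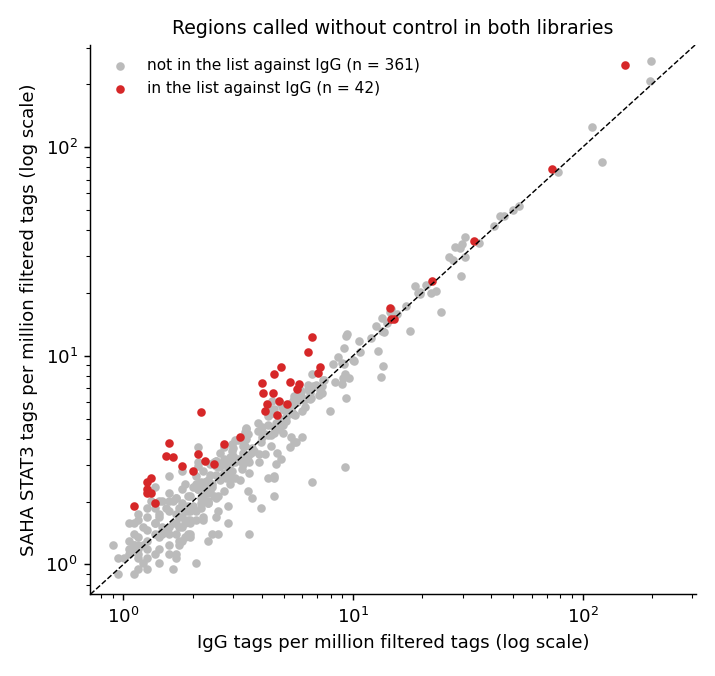
Each point is a region called without control in both the SAHA STAT3 and IgG libraries, at its tags in each scaled to 1e6 filtered tags, on log scales, with a dashed line of equal values. Of the 42 listed regions, 41 lie above the line, at a median ratio of 1.42 over all 42, and the 361 unlisted ones lie on both sides of it.

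The 20 highest-scoring promoter regions lay at genes of varied function. Clcn7, a chloride and proton exchanger of lysosomes, led with 142.8 at chr17:25269562-25271491 (mm9), a region that covers the start and has its midpoint 188 bp inside the gene. Zmpste24, the protease that matures lamin A, followed with 140.06, 145 bp inside. Slfn2, a Schlafen gene that keeps immune cells quiescent, had 132.29 and was also called without control, at 36 tags. Uvrag, a subunit of the Beclin 1 complex of autophagy, had 122.64, 208 bp upstream of its start. Smek2, a regulatory subunit of protein phosphatase PP4, had 122.59.

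Partners of the Polycomb repressive complex PRC2 stood among the same 20 regions, at Aebp2 (120.66) and Mtf2 (109.14). Transcription factors included Max, the obligate partner of Myc, at 108.81, and Maff, a small Maf protein, at 104.6. Dedd2, a death effector domain protein, had 119.63, Fubp3, a single-stranded DNA binding protein, 113.88, and Pa2g4 112.81. Cuta had 112.54, Ifrd1 106.94 and Prpf6, a splicing protein of the U5 particle, 104.94. Tmem140 had 97.93, Dlst, an enzyme of the citric acid cycle, 96.0, Asap1, an activator of Arf GTPases, 95.48, Mrfap1 94.77 and Rpl22, a ribosomal protein, 94.23. All 20 lay over a SAHA H3K4me3 region. A diluent STAT3 region was overlapped at Aebp2, Dedd2, Mtf2 and Rpl22, with scores in that list of 31.27, 44.98, 38.04 and 82.25.

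Away from promoters, the top of the list mixed regions with and without IgG signal. The highest score, 241.53, was 68.3 kb downstream of the start of Axin2, an inhibitor of Wnt signalling, at chr11:108872686-108873688 (mm9). It carried 12.4 tags per 1e6 filtered tags in SAHA STAT3, 6.6 in IgG and 5.6 in diluent STAT3. Mir715, whose sequence lies in the ribosomal RNA precursor, had a region 6415 bp wide with 246, 153 and 100 on that scale, in the same order. At Chl1 the 3 values were 35.4, 33.8 and 28.2. In these cases the IgG library held a large part of the SAHA STAT3 count.

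Other distal regions lay over no IgG region. The one assigned to Arid1b, a subunit of the BAF remodelling complex, scored 170.03 at chr17:4625827-4626705 (mm9), 369 kb upstream of the start, with 50 tags without control (12.7-fold over background) and an H3K4me3 region under it. Id2, a regulator needed for dendritic cell subsets, had 96.07 at 144 kb upstream, also with H3K4me3. Baz1a, a remodeller subunit, had 124.75 at 1590 bp. Il10ra, the IL-10 receptor chain whose signal runs through STAT3, had 114.47 at 15.9 kb from its start, past the end of the gene and over a diluent STAT3 region of score 33.26. Fcgr3, an activating Fc receptor, had 112.18, Sulf1 114.74 over a diluent STAT3 region of score 62.37, and Cdk5r1 112.88. Of the regions in this paragraph, only those of Il10ra and Sulf1 overlapped the diluent list. Only those of Arid1b (26 tags) and Sulf1 (29 tags) were also called without control in the diluent STAT3 library. Assignment was by the list's own gene, and a distant region need not act on it.

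To read gene groups, the same 14014 scored coding genes were used. Of these, 2506 (17.9%) had a SAHA STAT3 region with its midpoint within 5 kb of a start, and 1379 within 1 kb. Most of the 2506 had a single region, while 211 had 2 and 23 had 3 or more. Of the 1379 genes, 1303 (94.5%) had a start under SAHA H3K4me3, against 11258 of all 14014 (80.3%). Across 30 gene lists, 233 of 952 distinct genes had a region within 5 kb, and several genes stand in more than 1 list.

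Classical STAT3 targets had a region at 15 of 44 genes (34.1%, 20.5 to 49.9%), beside 17.9% of all genes. Within 1 kb, 10 of the 44 had one, beside 9.84% of all genes. Stat3 itself led with 83.69 at chr11:100800644-100801609 (mm9), 301 bp upstream of its start. That region had 37 SAHA tags without control (7.62-fold over background) and overlapped a diluent region of score 86.52. Ccnd1, the cyclin D1 of cell cycle entry, had 79.64, Hspa1a, an inducible heat shock protein, 66.61 in a region assigned to Hspa1l, and Junb, an AP-1 subunit, 59.74. Icam1, Bcl6, Socs3, Klf4, Sbno2, Pim1, Zfp36, Trib1, Il21, Birc5 and Nfkbiz had between 30.56 and 47.98. Of the 15, 14 lay over H3K4me3, and the region at Il21 did not.

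Socs3, Bcl6 and Ccnd1 had runs of nearby regions, while those assigned to Fos, Hif1a and Myc lay only far from the start. Socs3 was assigned 5 regions, 4 of them within 16.7 kb. They scored 61.43, 68.25, 43.66 and 32.19 in order along the chromosome, at 8.95, 5.53 and 2.71 kb past the start and 6.91 kb upstream. All 5 lay over SAHA H3K4me3, and the one at 8.95 kb overlapped a diluent region of score 62.63. Bcl6, a repressor, had 46.58 at 341 bp upstream and 4 weaker regions, the farthest 170 kb away. Ccnd1 had 79.64 at 1.72 kb upstream and 35.69 at 294 bp inside. Fos, an AP-1 subunit, had 4 regions of 36.56 to 50.56, and none was nearer than 16.7 kb. Hif1a had 2, at 19.5 and 26.7 kb upstream, and Myc 1, at 22.5 kb.

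**Figure D4:**
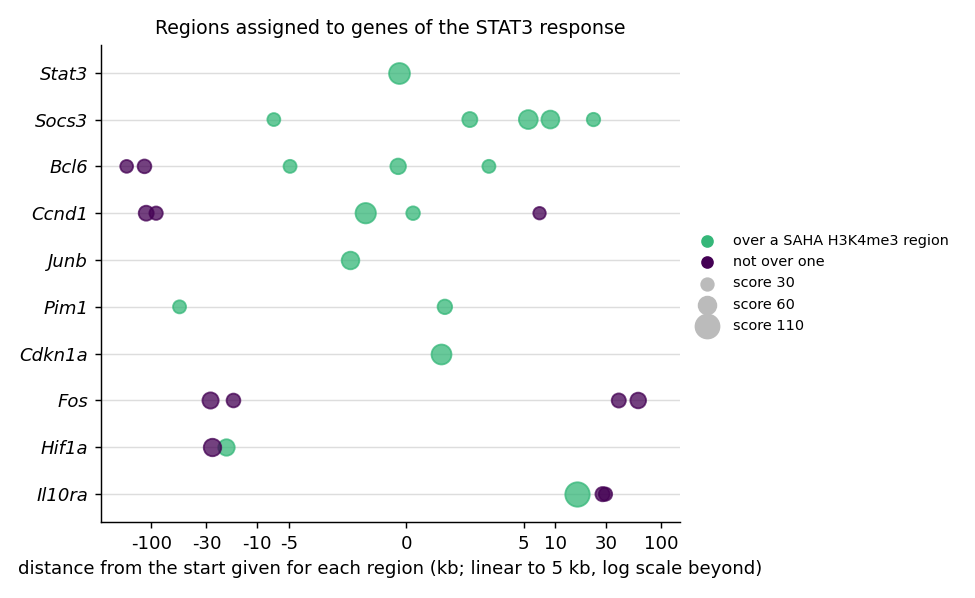
Circles mark the SAHA STAT3 regions assigned to 10 genes, by distance in kb from the start given with each region (linear to 5 kb, log scale beyond), with area in proportion to the score. Green circles lie over a SAHA H3K4me3 region. All 5 Socs3 regions are green, and all 4 Fos regions lie at 16.7 kb or more without H3K4me3.

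In the list of cytokine receptors, Janus kinases and STATs, 5 of 43 genes (11.6%, 3.89 to 25.1%) had a region, beside 17.9% of all genes. Besides Stat3 they were Jak3, the kinase of the common gamma chain, with 60.46 at 10 bp from its start, Il6ra with 53.67, Il12rb1 with 46.82 and Csf1r with 31.15. Inhibitors of JAK-STAT signalling had 5 of 24 (20.8%), with Pias1 at 57.23 (39 bp), Ptpn1, a phosphatase of Janus kinases, at 50.15, Socs3, and Sh2b3, an adaptor that damps receptor signals, at 40.99. NF-kB inhibitors and inflammatory brakes had 5 of 34 (14.7%), among them Il1rn, the IL-1 receptor antagonist, at 48.12. TLR signalling had 4 of 41 (9.76%), with Relb at 50.69, Traf3 at 49.86, Map3k7 at 31.69 and Ikbke at 30.14.

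Immediate early and AP-1 factors had 11 of 33 (33.3%, 18.0 to 51.8%), all 11 over H3K4me3. Maff had 104.6, Klf10, a TGF-beta induced repressor, 91.18, Atf4, the factor of the integrated stress response, 61.73 and Ier3 60.74. Dendritic cell transcription factors had 10 of 27 (37.0%, 19.4 to 57.6%). Fli1 led with 69.21, then Nfil3, needed for conventional dendritic cells, with 58.36, Tcf4, the plasmacytoid regulator, with 57.32, and Relb with 50.69. The rest were Bcl6, Klf4, Spi1, Runx3, Notch2 and Runx1, at 30.33 to 46.58. Cytokines and chemokines had 9 of 30 (30%), with Osm at 62.68, Cxcl10 at 55.11 (42 bp upstream), and Lta and Tnf sharing 1 region of 51.32. Costimulatory and coinhibitory molecules had 10 of 32 (31.2%), with Cd80 at 74.17 in a region assigned to Adprh, Pdcd1lg2, the ligand PD-L2, at 57.79, Tnfrsf14 at 51.88 and Pirb at 48.78. Near-identical copies of Pirb make that region's gene uncertain.

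Antigen presentation genes had 3 of 26 (11.5%, 2.45 to 30.2%), an interval that holds the 17.9% of all genes. Within 1 kb the count was 0 of 26, beside 9.84% of all genes. All 26 had a start under H3K4me3. The 3 were Ifi30, the thiol reductase of antigen processing, at 51.24, H2-DMa at 40.16 and Rfx5 at 32.04. Dendritic cell markers had 0 of 12 (exact upper bound 26.5%), also with all 12 starts under H3K4me3. That list of 13 includes the transcription factors Irf4, Irf8, Batf3, Zbtb46 and Id2, so those scored had no region within 5 kb. Macrophage and monocyte markers had 3 of 9, Mertk, Lyz2 and Csf1r, at 38.36, 32.57 and 31.15. Of other lineages, T cell markers had 2 of 7 (Cd8b1 and Cd4), granulocyte and mast cell 1 of 4 (Cebpe), erythroid 1 of 3 (Klf1), non-haematopoietic 1 of 4 (Foxa2) and NK cell 0 of 2. The lineage list scores reached 43.75 at most, at Cd8b1. With so few genes these shares have wide intervals.

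Lysosome and autophagy genes had 22 of 61 (36.1%, 24.2 to 49.4%), 16 of them within 1 kb. Of all genes, 17.9% had a region within 5 kb and 9.84% within 1 kb. After Clcn7 and Uvrag came Vps16, of the HOPS tether, with 81.85 in a region assigned to Fam113a, and Npc2, a cholesterol carrier, with 54.87 in one assigned to Isca2. All 61 had a start under H3K4me3. Small GTPases of vesicle traffic and their regulators had 13 of 54 (24.1%), with Asap1 at 95.48, Rab4b at 78.84, Arf6 at 67.49 and Rab10 at 47.42. Among genes named Arf or Arl, 9 of 22 (40.9%, 20.7 to 63.6%) had a region, and 10 of 50 named Rab (20%) did. Actin and cell adhesion genes had 18 of 69 (26.1%), with Arhgap31 at 68.21, Gsn at 61.66, Arpc1b at 56.42 and Itga5 at 53.69.

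Among chromatin genes, remodellers and methyltransferases had 19 of 60 (31.7%, 20.3 to 45.0%). At scores of 40 or more the count was 5 of 60 (8.33%, 2.76 to 18.4%), near the 7.49% of all genes at that score. Baz1a had 124.75, Kdm2b 55.87, Kmt2b 42.83 in a region assigned to Zbtb32, and Ash2l 42.49. Histone acetylation enzymes had 10 of 35 (28.6%, 14.6 to 46.3%), an interval that holds 17.9%, and 2 of 35 (5.71%) at scores of 40 or more. These 2 were the coactivators Ncoa3 at 70.69 and Ncoa2 at 60.65. Among the deacetylases that SAHA-type drugs address, Hdac3 had 32.04 at 12 bp from its start, and among class IIa members Hdac7 had 32.63 and Hdac4 30.19.

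Cell cycle inhibitors and growth arrest genes had 9 of 32 (28.1%, 13.7 to 46.7%). Cdkn1a, the p21 inhibitor, had 76.17 at 1487 bp inside the gene, Foxo3 56.53, Gadd45b 50.97 and Plk2 47.99. Cell survival and apoptosis genes had 9 of 38 (23.7%), with Bid at 71.32, Bcl2a1b at 55.06, Casp4 at 52.81 and Bcl2l2 at 41.54. Bcl2a1b belongs to a family of near-identical copies, so its reads may be shared. MAP kinase genes had 8 of 40 (20%), led by Map4k1 at 55.55, and glycolysis and hypoxia genes 7 of 39 (17.9%), led by Ldha at 59.54. Splicing factors had 16 of 58 (27.6%), led by Hnrnph1 at 73.99, ubiquitin enzymes 16 of 71 (22.5%), led by Ube2e1 at 56.89, and ribosomal proteins 16 of 74 (21.6%), led by Rpl22 at 94.23. The ribosomal share stood close to the 17.9% of all genes.

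**Figure D5:**
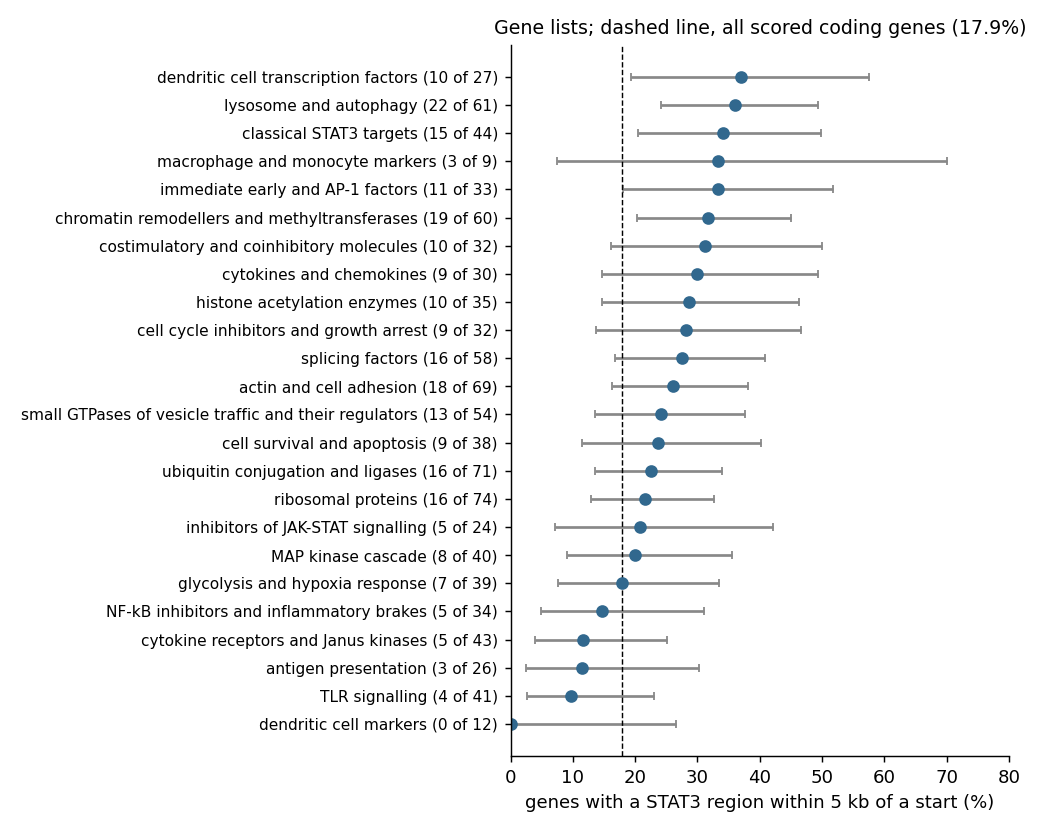
Points give the share of scored genes in each list with a SAHA STAT3 region within 5 kb of a start, in percent, with exact 95% intervals, for lists of 9 or more scored genes, and the dashed line marks 17.9% of all scored coding genes. The highest point is the dendritic cell transcription factors (10 of 27), and the lowest is the dendritic cell markers (0 of 12).

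The lower bound of the interval lay above 17.9% for 5 of the 30 lists. These were dendritic cell transcription factors, lysosome and autophagy, classical STAT3 targets, chromatin remodellers, and immediate early and AP-1 factors, the last at 18.0%. H3K4me3 covered a start of 27 of 27, 61 of 61, 40 of 44, 57 of 60 and 33 of 33 genes, in that order. Over all scored genes that share was 80.3%. The lists share genes, were chosen with earlier results of these data known, and the bounds were not adjusted for 30 lists. They describe the lists and are no test. At scores of 40 or more, the lower bound for remodellers was 2.76%, below the 7.49% of all genes, while the other 4 stayed above it, at 11.1 to 13.2%. By gene names alone, 12 of 41 Nduf genes of respiratory complex I (29.3%, 16.1 to 45.5%) and 9 of 32 Ube2 genes (28.1%, 13.7 to 46.7%) had a region. The same held for 39 of 284 Slc solute carriers (13.7%, 9.95 to 18.3%) and 7 of 62 Kcn potassium channels (11.3%, 4.66 to 21.9%). All 4 of these intervals hold 17.9%. Zfp zinc finger genes had 44 of 338 (13.0%, 9.62 to 17.1%). Vomeronasal receptors had 0 of 38, Hox genes 0 of 11 and olfactory receptor genes 12 of 78 (15.4%). A gene is scored only where 1 of the 4 lists gives its start, so such shares are partly set by the lists. The SAHA STAT3 list alone gave the start of 23 of the 78 olfactory receptor genes (29.5%), against 788 of all 14014 genes (5.62%).

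Runs of at least 3 regions with gaps of at most 10 kb formed 63 clusters holding 200 regions, and 45 clusters (71.4%) carried 1 assigned gene. At least 1 H3K4me3 region lay under 50 of them. Of the clustered regions, 102 (51.0%) were over H3K4me3, beside 27.2% of the list, and 0 over IgG. The largest held 4 regions, and 11 clusters reached that. Uvrag had scores of 35.54, 122.64, 45.31 and 31.29 over 11.4 kb, and Ehd4, a protein of endosome recycling, 45.44, 31.92, 83.99 and 38.01. Arf6, with its neighbour Sdccag1, had 36.44, 46.57, 67.49 and 51.92, all 4 over H3K4me3. The cluster over Nfkbil1, Atp6v1g2 and Bat1a spanned 8.15 kb with 47.73, 44.49, 40.25 and 37.63. Stk40, Wnt6 with Wnt10a, Ranbp9, Bcas1 and Socs3 also had 4, and the remaining pair of clusters carried unnamed transcripts.

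Counting every region assigned to a gene, however far, Med13l, a Mediator kinase module subunit, had 11 (30.8 to 56.23, 1.12 to 156 kb from the start). Pkdcc had 8, at up to 564 kb, and Daam1, Ppap2b and Tox 7 each. Arid1b, Pfkfb3, Tmcc1, Plxdc2, Btg1, Nrp2, Mitf and Ext1 had 6. The 7 regions of Tox lay between 101 and 587 kb from its start with none over H3K4me3, whereas 6 of the 7 of Daam1 lay inside the gene. Of 6335 assigned names, 4777 had 1 region, 1122 had 2 and 436 had 3 or more.

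MicroRNA genes were assigned 76 regions at 64 names, of which 6 regions lay within 1 kb and 17 within 5 kb. Over the whole list, 16.5% of regions lay within 1 kb and 32.4% within 5 kb. A microRNA's start here is that of its short listed entry, which may lie away from where its transcription begins. The counts are thus not at like starts and do not describe microRNA promoters. MicroRNAs silence messenger RNAs that pair with bases 2 to 8 of the mature strand, the seed. Those shown were chosen after their values were seen, for their place in myeloid inflammation or their score. The mature strands are RefSeq sequences of GRCm38.p6, with the seed in capitals.
mmu-miR-155-5p: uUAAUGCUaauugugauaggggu
mmu-miR-146a-5p: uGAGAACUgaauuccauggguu
mmu-miR-146b-5p: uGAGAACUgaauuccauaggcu
mmu-miR-26b-5p: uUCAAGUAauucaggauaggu
mmu-miR-148b-3p: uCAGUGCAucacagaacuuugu
Mir26b scored 74.62 at 1984 bp past the start of its entry, over a diluent STAT3 region of score 130.38 and SAHA H3K4me3. Mir148b scored 71.53 at 1500 bp and Mir155, induced in activated dendritic cells, 35.27 at 2497 bp, neither over H3K4me3. miR-146a and miR-146b, brakes on TLR signalling, share the seed GAGAACU. The regions assigned to them scored 50.07 at 7408 bp (listed as Mir146) and 52.74 at 6896 bp, the latter over H3K4me3.

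Chromosome X carried fewer regions than the autosomes. In SAHA, 161 of 8551 regions (1.88%) lay on X, and 28 of its 459 scored genes (6.10%, 4.09 to 8.70%) had one within 5 kb, against 14.9 to 21.1% on the autosomes. The diluent list had 113 of 3507 regions (3.22%) on X and 11 of 459 genes (2.40%), against 6.18% of all scored genes. H3K4me3 covered a start of 346 of the 459 (75.4%), close to the 80.3% of all scored genes. Both groups came from female mice.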

How the data were processed

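DNA was sonicated to 200 to 500 bp, per the labels' protocols. The submitters' processing notes name BWA and the mm9 build. The deposited lists against IgG hold 1 score per region, the authors' own value, and assign a gene. How these lists were called is not given here. Single-library tables, made with MACS 1.4.0rc2 without control at a p limit of 1e-05 per the file headers, hold tag counts and a fold, a ratio over local background, as deposited by the authors, and a score. In the single-library files the authors kept at most 2 duplicate tags a position, per the file headers. The single-library read summary files (FastQC 0.9, deposited) gave read counts and percent GC.

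With Python 3.11.15, pandas 2.3.3, numpy 2.4.6 and scipy 1.17.1, list starts were read as 0-based, and distance ran from midpoint to assigned start. Overlap needed 1 bp, and tags were scaled to filtered tags. Genes were matched to RefSeq by accession or symbol (5455 of 6335 assigned names), and gene symbols stored as dates were restored in 13 rows. Overlap, interval and cluster steps were tested on simulated data. With 1 library per group no test was made. Named are the 20 highest scores within 1 kb of a start, the 20 highest at any distance, the 15 highest also called without control outside IgG, the 10 highest beyond 50 kb, the largest clusters, the genes with most regions, and per list up to 4 members by score, passing over unnamed transcripts except in gene lists. Not every gene so selected is described, and the STAT3 regions of the B cell marker list are not reported here. The members and gene lists were chosen with earlier results of these data known.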

Additional observations from a re-analysis of the deposited data

How the results depend on the processing

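The share of regions within 1 kb of a start, 16.5%, became 11.5% at 500 bp, 32.4% at 5 kb, 9.71% where the region had to cover the start, 34.3% at scores of 50 or more, and 22.0% with each gene counted once. At scores of 50 or more, the share over IgG was 1.66% (0.503% for all regions), called without control 16.9% (3.24%) and over H3K4me3 54.9% (27.2%). With 50% of the region overlapped, the H3K4me3 share was 25%. Clusters numbered 26 at gaps of 5 kb and 164 at 20 kb, against 63. Genes with a region were 9.84% at 1 kb, 24.4% at 10 kb and 7.49% at scores of 40 or more, against 17.9%. TTCNNNGAA was in 4.14% of promoters at scores of 50 or more, and the same letters with a spacer of 4 bases were in 5.22%, against 6.84%. Only 43 of 8551 regions lay over IgG, so leaving these out could change little. Without regions over IgG, the share within 1 kb was 16.6%, clusters numbered 63 and genes with a region were 17.9%, and, in alternatives chosen after seeing the data, all 30 gene list counts stayed within 1.5 times. Counts of 19 lists moved by more than that at scores of 40 or more, and of 22 at 1 kb. No paired analysis was possible because each group was 1 library. Outside IgG, regions called without control held a median of 21 tags, whether listed or not, so each rests on few tags.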

Other observations

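The row left out of the list is assigned to Ido1, the enzyme of tryptophan breakdown. It lies on chromosome 8 from 25708146 to 25708770 (mm9) with a score of 60.58. Its region number, 10442, is also held by a region at Grpr on chromosome X, while the other numbers on chromosome 8 run from 9219 to 9684. Its transcript identifier is that of Arl5b, on chromosome 2, and its strand is plus where the H3K4me3 lists give minus for Ido1. It overlapped 0 regions of the SAHA STAT3 or IgG libraries called without control. How the row arose was not tested.

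Region numbers in the list run to 10461, and 1910 numbers are not used. Of neighbouring listed regions, 1510 of 8530 pairs (17.7%) skip at least 1 number. Where a region of the SAHA STAT3 library called without control and outside IgG is missing from the list, a number is skipped there in 72 of 137 cases (52.6%, 43.9 to 61.1%), and over IgG in 136 of 318 (42.8%, 37.3 to 48.4%). On chromosome Y the SAHA STAT3, diluent STAT3 and IgG libraries had 23, 30 and 28 regions without control, and the list against IgG held 1 region there.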
